A study of Bos taurus and Ovis aries and Capra hircus with 27 samples.

Results

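Heart and kidney of cattle were compared over 13580 of the 24616 genes in the deposited cattle table, namely those above 0.5 FPKM in at least 3 of 6 libraries. FPKM is the number of fragments of a gene, scaled to its transcript length and to the mapped fragments of the library. The labels describe indigenous Bos taurus of about 4 years from Chengdu, Sichuan, with 3 heart and 3 kidney strand-specific mRNA libraries among the 27 libraries of the series. According to the study's methods, the animals were unrelated adult females from low altitude, and each gave several tissues. No treatment of the animals is described there. Of the genes not compared, 6902 were listed at 0 in all 6 libraries. At the edge of the selection, 1458 genes exceeded 0.5 FPKM in exactly 3 libraries and 544 in exactly 2.

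The heart is built mainly of contracting muscle cells, which depend on mitochondrial respiration and make large amounts of a limited set of contractile proteins. The kidney is built of nephrons, in which many kinds of epithelial cell filter blood and take up or secrete salts, water, sugars and amino acids, each with its own transporters. Both organs also hold blood vessels, fibroblasts and immune cells. In whole tissue, fewer cells of a type and less RNA per cell cannot be told apart.

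The tables give Ensembl identifiers (ENSBTAG) without names, and the reference table of cattle genes used here matched 0 of the 24616 identifiers. Genes are therefore described by their level, by the size and direction of their difference and by their state in liver. Gene lists by symbol and tissue markers were not analysed here, so the tissue labels were not checked against markers. For their differences, 4 genes are named.

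**Figure D1:**
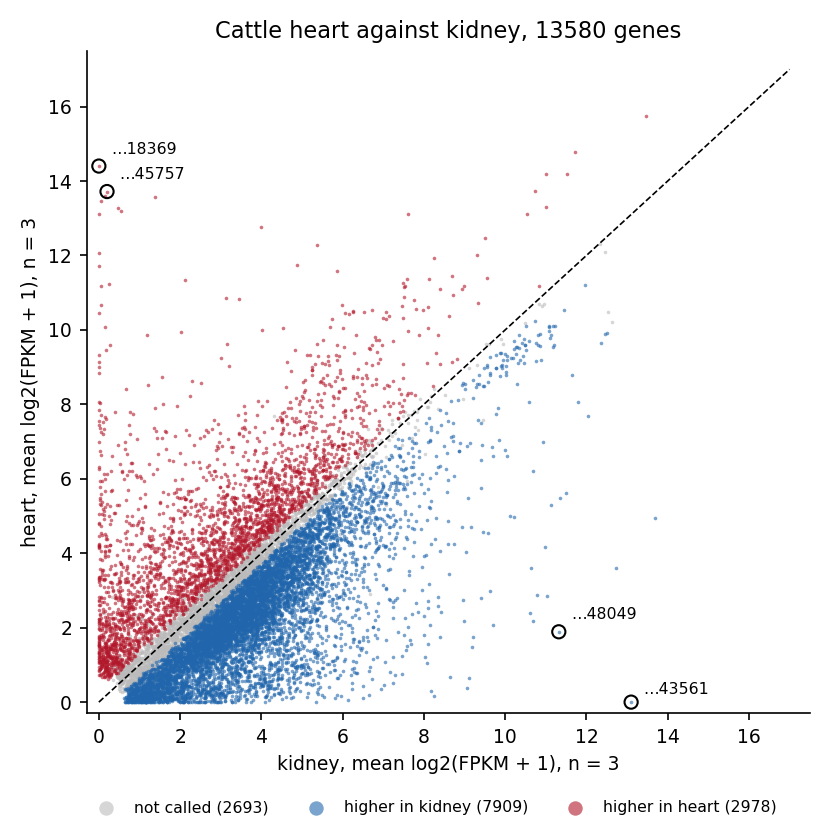
Mean log2(FPKM + 1) of each of the 13580 genes in kidney (x axis) and heart (y axis), n = 3 libraries each, coloured by limma's call, with equal levels on the dashed line and the 4 named genes circled by the last digits of their identifiers. The 7909 genes higher in kidney form a broad cloud just below the line, whereas the genes with the largest differences towards heart stand at the left edge, at or near 0 in kidney.

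On deposited values, kidney was the higher tissue for most genes, and heart for most of the genes with the largest differences. Between the tissues, 10887 genes differed (limma on log2(FPKM + 1), Benjamini-Hochberg adjusted p at or below 0.05), which is 80.2% of the genes tested. Of these, 7909 were higher in kidney (58.2% of those tested) and 2978 in heart (21.9%). Differences are given as heart minus kidney on the log2 scale throughout. The median over the genes higher in heart was 1.28, and over those higher in kidney −1.20. The middle 50% of all genes lay between −1.34 and 0.24, and the standard error of a gene had a median of 0.15. The values of the tissues did not overlap in 11184 genes (82.4%), with heart wholly above kidney in 3123 (23.0%) and wholly below it in 8061 (59.4%). Called and at least 2-fold apart on the log2(FPKM + 1) scale were 6767 genes (49.8%), 1838 towards heart (13.5%) and 4929 towards kidney (36.3%).

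The tissues were much farther apart than replicates. Between any heart and any kidney library, 47.0% to 53.6% of the genes were at least 2-fold apart on the log2(FPKM + 1) scale, in contrast to 0.250% to 4.53% between replicates. Pearson's r across genes was 0.588 to 0.621 over the 9 pairs of tissues and 0.966 to 0.993 over the 6 pairs of replicates. Genes are not independent replicates, so no test was made on r. Kidney 1 and 2 (r = 0.993) and heart 2 and 3 (r = 0.988) were the closest pairs, so that heart 1 and kidney 3 stood somewhat apart from their replicates. With each close pair averaged and counted as 1 library, 9338 genes were called, 27.4% of them higher in heart.

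A gene that misses the threshold is not thereby shown to be equal. The 95% confidence interval of the difference lay wholly within 2-fold for 4135 genes (30.4%), wholly beyond 2-fold towards kidney for 3239 (23.9%) and wholly beyond it towards heart for 1323 (9.74%). It crossed one of these limits for the remaining 4883 genes (36.0%). These counts are for deposited values. Under the median ratio scaling described below, the order of the tissues was reversed. The interval then lay wholly beyond 2-fold towards heart for 2225 genes (16.4%) and towards kidney for 1548 (11.4%).

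The predominance of kidney depended on how libraries were put on a common scale. The median difference over all genes was −0.65 with deposited values, and −0.74 to −0.50 over the 9 pairs of a heart and a kidney library. Median ratio scaling divides each library by the median, over genes, of the ratio to a geometric mean library, and gave a median of −0.039. It aligns the libraries at their median ratio, so a small median and a nearly even split of calls are built in. The test on median ratio values called 9978 genes (73.5%), 4931 higher in heart (36.3%) and 5047 higher in kidney (37.2%). Of these, 3043 were at least 2-fold apart towards heart and 2450 towards kidney, against 1838 and 4929 on deposited values. With equal summed FPKM the median was −1.08 and 17.7% of the calls were higher in heart, against 27.4% with deposited values. Of the 10887 calls on deposited values, 8282 were shared with median ratio scaling, and among those 257 had changed sign.

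**Figure D2:**
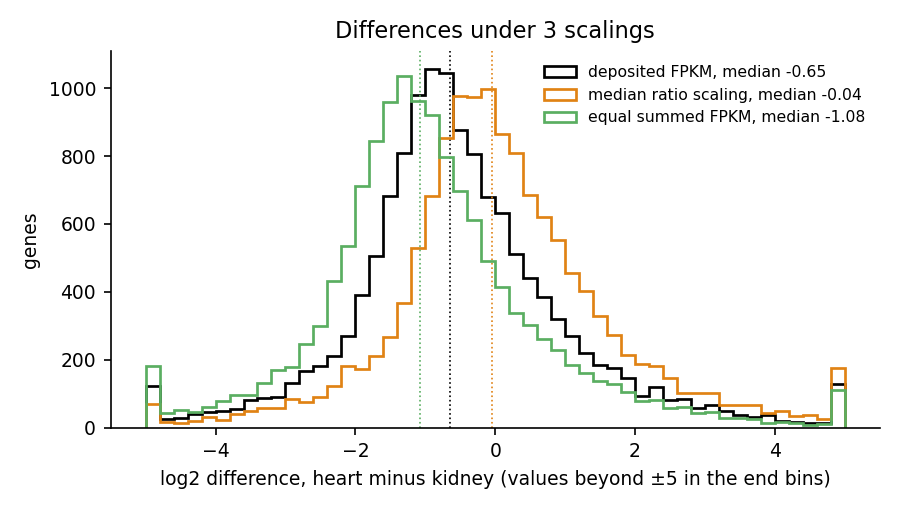
Number of genes (y axis) by log2 difference, heart minus kidney (x axis, bins of 0.2, values beyond ±5 in the end bins), for deposited FPKM, median ratio scaling and equal summed FPKM, with dotted lines at the medians of −0.65, −0.039 and −1.08. Scaling shifts the whole distribution along the axis.

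A set of genes kept its direction whichever scaling was used. Under all 5 scalings (deposited values, median ratio, quantile, equal sum, and equal sum over genes of at most 1000 FPKM), 2029 genes were called higher in heart and 4798 higher in kidney, that is, 68.1% and 60.7% of the calls in each direction on deposited values. Most of them differed by at least 2-fold on deposited values, 1801 in heart and 4486 in kidney. The numbers for the tissues are limited by different scalings. Equal sum scaling alone called 2031 genes higher in heart, and median ratio scaling alone 5047 higher in kidney. How the numbers compare between tissues therefore depends on the scalings included. A further 1788 genes (13.2%) were called only towards heart and 3311 (24.4%) only towards kidney, under some scalings but not all. Another 1314 genes (9.68%) were called in both directions, depending on the scaling, and 340 (2.50%) under none. For these 1314 genes the tissue with the higher level could not be stated from FPKM.

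On deposited values, the percentage of genes higher in heart grew with the size of the difference from 2-fold upwards. Among genes called and at least 16-fold apart on the log2(FPKM + 1) scale, 199 were higher in heart and 268 in kidney. At 64-fold or more, 68 were higher in heart and 44 in kidney. At 256-fold or more the numbers were 25 and 10, and at 1024-fold or more 14 and 1. The percentage higher in heart thus went from 27.4% of all calls to 71.4% at 256-fold, where it lay between 61.5% and 88.9% under the other 4 scalings and was 73.9% with a pseudocount of 0.1 FPKM. At 16-fold its side of 50% was not stable, with 68.0% under median ratio scaling and 55.7% under quantile scaling against 42.6%. At 64-fold it was 60.7%, and 47.1% with equal sums. For genes at or near 0 in one tissue these sizes depend on the pseudocount and are not true folds.

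**Figure D3:**
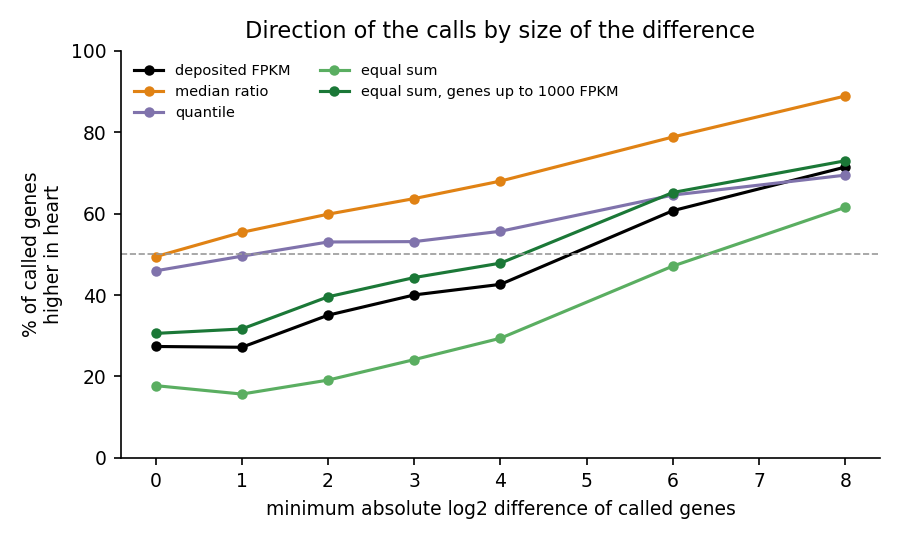
Percentage of called genes that were higher in heart (y axis) among genes at or above each absolute log2 difference (x axis), one line per scaling, with 50% dashed. All 5 lines end above 50% at a log2 difference of 8 (61.5% to 88.9%), although they start between 17.7% and 49.4%.

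Direction also differed between levels of expression, without a steady trend. Genes were sorted by their mean FPKM over the 6 libraries. Of the calls below 1 FPKM 31.2% were higher in heart, and of those at 1 to 3 FPKM 24.7%. Among the 4552 genes of 3 to 10 FPKM, 3661 differed and 18.3% of these were higher in heart, with a median difference of −0.85. Among the 1537 genes of 30 to 100 FPKM, 43.3% of the 1280 calls were higher in heart. For the 591 genes of 100 to 1000 FPKM it was 53.4% of 526 calls, and the median difference was 0.20. Above 1000 FPKM it was 47.8% of 90 calls, with a median difference of −0.39. Median ratio scaling moved all classes upwards and left the contrast between them, at 41.2% for 3 to 10 FPKM and 68.1% for 100 to 1000 FPKM. The median SD between replicates lay between 0.154 and 0.222 on the log2 scale in all 7 classes, below the median absolute difference between tissues of 0.660 to 2.59.

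**Figure D4:**
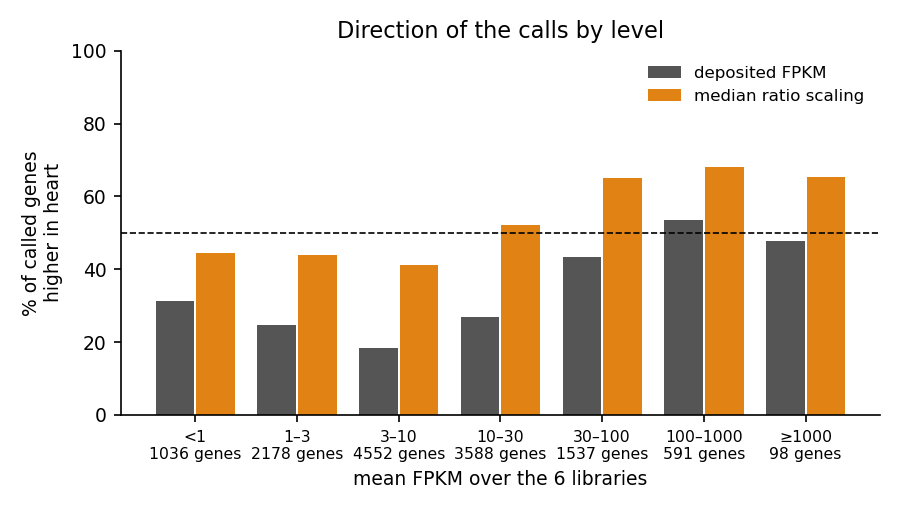
Percentage of called genes that were higher in heart (y axis, bars from 0) in 7 classes of mean FPKM over the 6 libraries (x axis, with the number of genes), for deposited FPKM and median ratio scaling. The bars are lowest at 3 to 10 FPKM (18.3% and 41.2%) and highest at 100 to 1000 FPKM (53.4% and 68.1%).

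One group of abundant genes was conspicuous in the plot of the 2 tissues and was described after it had been seen there. Of 138 genes of 500 to 3000 FPKM in kidney, 107 were also at 100 FPKM or more in heart. Their median difference was −0.87, with quartiles of −1.16 and −0.49. The bounds on both tissues leave out genes with large differences and so narrow this range. They also set a higher floor in kidney (500 FPKM) than in heart (100 FPKM), so the selection itself can tilt the group towards kidney. On deposited values 86 of them were higher in kidney and 10 in heart. Over all genes tested, 58.2% were higher in kidney and 21.9% in heart. Under median ratio scaling their median was −0.08, with 31 higher in kidney and 27 in heart, so the direction of the group rested on the scaling.

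The summed FPKM was held by fewer genes in heart. The number of genes that together held 50% of the summed FPKM was 27, 20 and 44 in heart libraries 1 to 3, and 145, 154 and 124 in kidney libraries 1 to 3. The heart libraries all lay below the kidney libraries. For 90% of the sum, 1671, 1381 and 1843 genes were needed in heart and 4421, 4428 and 3920 in kidney. The 100 highest genes of each library held 63.7% ± 3.86 of the sum in heart and 44.9% ± 1.70 in kidney (SD, n = 3).

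On deposited values, the number of genes past a given level turned over between low and high levels. Such counts depend on the scale of each library and were not repeated under the other scalings. The factors by which median ratio scaling divides the libraries were 0.725 to 0.826 in heart and 1.24 to 1.37 in kidney. Genes above 10 FPKM numbered 4416 ± 128 in heart and 6364 ± 177 in kidney (SD, n = 3). Genes above 100 FPKM were slightly more numerous in heart, with 657, 666 and 676 against 618, 637 and 643. Above 1000 FPKM the tissues overlapped, with 92, 85 and 91 genes in heart and 93, 93 and 83 in kidney. Over 8 such measures the exact permutation test (2-sided, 3 libraries against 3) gave p = 0.1 for 7, which is the smallest it allows, and p = 1 for the genes above 1000 FPKM. After Benjamini-Hochberg adjustment these were 0.114 and 1, so none could pass 0.05.

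**Figure D5:**
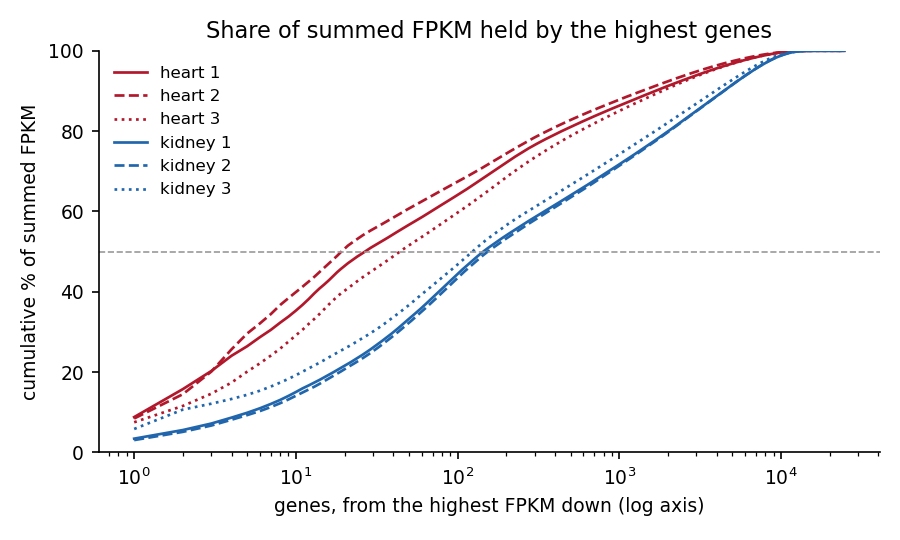
Cumulative percentage of summed FPKM (y axis) over genes from the highest down (x axis, log scale), one line per library, red for heart and blue for kidney, with 50% dashed. The 3 heart lines cross 50% at 20 to 44 genes and the 3 kidney lines at 124 to 154.

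The most abundant genes were largely different ones. Above a mean of 1000 FPKM stood 90 genes in heart and 91 in kidney, of which 26 were shared. These 155 genes held 65.9% ± 3.84 of the summed FPKM in heart and 44.5% ± 1.08 in kidney (SD, n = 3). Of the 100 genes with the highest means, 30 were shared (30% of each list), and of the 1000 highest 471 (47.1% of each). Of the 153 abundant genes tested, 71 were higher in heart, 73 higher in kidney and 9 not called. Over all genes tested, 21.9% were higher in heart, 58.2% higher in kidney and 19.8% not called. The abundant genes were chosen by a high level in either tissue, so their split is a description.

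Some of the most abundant genes had a value of exactly 0 in a single library. There were 3 with 0 in heart 3 and over 100 FPKM in heart 1 and 2, named here after their values were seen. ENSBTAG00000043564 had 74510 and 54679 FPKM in heart 1 and 2 and 11920, 11414 and 49.7 in kidney. ENSBTAG00000043560 had 32091 and 50865 in heart 1 and 2 and 6712, 6439 and 5971 in kidney. ENSBTAG00000043584 had 38185 and 76406 in heart 1 and 2 and 6235, 5544 and 6018 in kidney. Heart 1 and 2 exceeded every kidney library for each of them, yet none was called (limma adjusted p from 0.578 to 0.961), with heart 3 listed at 0. A 0 in a table without counts can be a failed estimate, which was not tested here. With these 3 values set missing, the number of calls was 10891. The zeros also enter the summed FPKM of heart 3, which was 756646 against 846504 and 904285 in heart 1 and 2. All shares of the sum given for heart 3, and its numbers of genes holding 50% and 90%, carry this limit. They were not recomputed without these genes. ENSBTAG00000043561, described below, was listed at 0 in every heart library. If that is a failed estimate, the sums of heart 1 and 2 carry a like limit, which was not tested.

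Expression limited to one tissue was uncommon and unequal in level. A gene was counted as limited when it exceeded 0.5 FPKM in all 3 libraries of one tissue and was at or below 0.1 FPKM in all 3 of the other. By contrast, 11072 genes exceeded 0.5 FPKM in all 6 libraries. Heart had 133 limited genes and kidney 192, and all of these genes were also called, as their selection by the same values brings about. In kidney, 61 of the heart-limited genes were listed at 0 in every library, and in heart 78 of the kidney-limited genes were.

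The heart-limited genes reached higher levels. Their median was 4.01 FPKM in heart (quartiles 1.65 and 28.7), with 12 genes of 100 to 1000 FPKM and 7 above 1000. The kidney-limited genes had a median of 1.56 FPKM in kidney (quartiles 0.967 and 3.36), with 51 genes below 1 FPKM, 132 of 1 to 10, 8 of 10 to 100 and 1 above 1000. The heart-limited genes held 5.38%, 5.45% and 6.93% of the summed FPKM in the heart libraries, and the kidney-limited genes 1.75%, 1.71% and 1.56% in the kidney libraries. Nearly all of the latter was ENSBTAG00000043561, without which the other 191 genes held 0.134%, 0.136% and 0.0943%. This gene was listed at 0 in every heart library, which can be a failed estimate and was not tested. Its place among the kidney-limited genes is therefore uncertain. Which tissue had more limited genes depended on the definition. After median ratio scaling there were 173 in heart and 117 in kidney, and with a level of 1 FPKM in place of 0.5 FPKM there were 101 and 96. Leaving out any 1 library raised both counts, to 143 to 183 in heart and 211 to 301 in kidney, with 301 without kidney 3 and 283 without heart 1.

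Limited genes could be followed in the liver libraries of cattle, which the definition had not used. Of the 133 heart-limited genes, 85 (63.9%) were at or below 0.1 FPKM in all 3 liver libraries and 15 (11.3%) exceeded 0.5 FPKM in all 3. Of the 192 kidney-limited genes, 84 (43.8%) were at or below 0.1 FPKM in liver and 7 (3.65%) exceeded 0.5 FPKM. The remaining 33 and 101 genes were mixed or in between.

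The liver level of all called genes is given as a description, on deposited values only. Over all genes tested, median log2(FPKM + 1) was 2.54 in heart, 2.55 in liver and 3.31 in kidney. The nearness of liver to heart was not examined under the other scalings. For genes higher in heart, median log2(FPKM + 1) was 4.31 in heart, 2.61 in kidney and 3.11 in liver. Genes higher in kidney had medians of 2.11 in heart, 2.45 in liver and 3.63 in kidney. Liver lay nearer to heart than to kidney for 5971 of the 7909 genes higher in kidney (75.5%) and for 826 of the 2978 higher in heart (27.7%), against 60.2% of all genes tested. It lay below both tissues for 51.9% of the genes higher in heart and 35.9% of those higher in kidney. With differences of at least 2 on the log2 scale, the liver was nearer to heart for 83.9% of 1589 genes higher in kidney and 23.8% of 857 higher in heart. Genes were split by which tissue was higher, which by itself favours a liver level nearer the lower tissue. The shares of these groups alone therefore do not show a likeness of liver to either tissue.

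The extremes were named by a rule on the size of the difference, among 1919 genes in heart and 4338 in kidney that were called, did not overlap and had a mean of at least 10 FPKM in the higher tissue. ENSBTAG00000018369 had 19215, 22879 and 23076 FPKM in heart libraries 1 to 3 and was listed at 0 in all 3 kidney libraries. It was the gene with the sixth highest mean in heart, and in liver it reached at most 0.309 FPKM. ENSBTAG00000045757 had 12643, 13384 and 14436 FPKM in heart, against 0.179, 0.288 and 0 in kidney (log2 difference 13.52 ± 0.12 SE, limma adjusted p = 1.7e-09). It was equally low in liver, with at most 0.324 FPKM. Both were present in all heart libraries at high levels and at or near 0 in kidney and liver.

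ENSBTAG00000043561 had 8989, 8749 and 8603 FPKM in kidney libraries 1 to 3 and was listed at 0 in all 3 heart libraries. In liver it had 14562, 8917 and 13159 FPKM. No fold is given against a group listed at 0, which in a table without counts can be failed estimates. Among the 78 other genes whose identifier numbers lie within 50 of it, 14 exceeded 1000 FPKM in heart and 10 in kidney, and these 78 include the 3 genes listed at 0 in heart 3 alone. It was also the single gene counted above as at least 1024-fold higher in kidney, and the single gene above 100 FPKM in all kidney libraries and at 0 in all heart libraries. In the opposite direction there were 9 such genes, above 100 FPKM in all heart libraries and at 0 in all kidney libraries.

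ENSBTAG00000048049 had 2009, 2097 and 3962 FPKM in kidney and 2.49, 2.73 and 2.91 in heart (log2 difference −9.43 ± 0.25 SE, limma adjusted p = 2.15e-07), and the mean in kidney was 993 times that in heart. Kidney 3 was the highest and kidney 1 and 2 were close to each other. In liver it had 10.2, 28.0 and 14.5 FPKM, above heart in every library.

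Kidney 3 differed from the other kidney libraries among the genes with the largest differences. The 100 genes with the largest difference towards kidney held 10.4% and 10.6% of the summed FPKM in kidney 1 and 2 and 22.1% in kidney 3. Their median level was more alike, at 175, 174 and 208 FPKM. In heart libraries the same genes had medians of 1.34 to 1.5 FPKM. The 100 genes with the largest difference towards heart held 19.2%, 18.5% and 24.0% in heart and at most 0.0964% in kidney, with median levels of 194, 245 and 255 FPKM in heart and at most 0.330 FPKM in kidney. As these genes were chosen by the same contrast, the values are a description. Without kidney 3, 11031 genes were called and 26.3% of them were higher in heart.

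The same selection and test were run on heart and kidney of indigenous goat (Capra hircus) and small tail han sheep (Ovis aries), both of about 3 years and each in its own table, with 3 libraries per tissue. With deposited values, heart was the higher tissue in 27.4% of the 10887 calls of cattle, 28.6% of 8922 calls of goat and 22.9% of 9813 calls of sheep. At 64-fold or more, 68 genes were higher in heart and 44 in kidney in cattle, 78 and 41 in goat, and 65 and 21 in sheep. Limited genes numbered 133 in heart and 192 in kidney in cattle, 155 and 285 in goat, and 134 and 233 in sheep. Genes holding 50% of the summed FPKM numbered 64 to 81 in heart and 105 to 357 in kidney of goat, and 12 to 16 in heart and 128 to 209 in kidney of sheep. Under median ratio scaling, heart was higher in 49.4% of the calls in cattle, 48.8% in goat and 49.9% in sheep. That scaling aligns the libraries at their median ratio. A nearly even split is thus built in and does not show which tissue predominates. Differences between species were not tested, since genes were not matched and each species has its own annotation.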

How the data were processed

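The authors mapped reads with TopHat to the UMD3.1 cattle genome, quantified genes with Cufflinks 2.2.1 and deposited log2(FPKM + 1) per gene and library, and libraries were strand-specific per the labels. The table holds no counts, so depth per library is not known and no counting intervals are given, and summed FPKM was 555342 to 904285 over the 6 libraries. Values were turned back into FPKM by undoing the logarithm and subtracting 1. Groups and replicate numbers came from the sample titles.

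The 6 libraries entered 1 linear model per gene on the deposited scale, heart minus kidney, in limma 3.58.1 under R 4.3.3. Its eBayes step used a trend of variance on mean level, and p-values were adjusted by Benjamini-Hochberg over all 13580 genes with a threshold of 0.05. The fit was checked on simulated data. A pseudocount of 1 FPKM understates changes of low genes. Measures per library were compared with exact permutation tests (scipy 1.17.1). Goat and sheep tables were fitted likewise.

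The study's methods imply that heart and kidney came from the same animals, but the labels do not say that a number marks an animal. The limma p-values set each difference against the spread between these libraries, with variances moderated across genes. The main fit took the 6 libraries as independent.

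Named genes were the 2 with the largest difference each way among genes called, not overlapping and with a mean of at least 10 FPKM, as fixed for identifiers without names. Comparisons and lists were chosen with earlier results of these data known. The alternatives covered pseudocount, filter, scaling, block, liver, averaged pairs, missing zeros and left-out libraries. Goat protein sequences were not used here.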

Additional observations from a re-analysis of the deposited data

How the results depend on the processing

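The number of genes called stayed within 1.5 times of 10887 under all scalings, filters, the other pseudocount, the replicate block and the fits with liver, without a variance trend, with averaged pairs or with missing zeros. A minimum log2 difference of 1 lowered it by construction to 6767 (1838 in heart, 4929 in kidney). Median ratio scaling gave 4931 higher in heart and 5047 higher in kidney, and quantile scaling 4593 higher in heart. Both scalings align the libraries by construction, which moves the split of calls towards even. The share of calls higher in heart was 49.4% with median ratio, 45.9% with quantile, 17.7% with equal sum scaling, 30.6% with equal sums over genes of at most 1000 FPKM and 26.3% with the study's filter (above 0.5 FPKM in over 80% of the libraries). The median difference was −0.039, −0.11, −1.08 and −0.54 under these 4 scalings, −0.82 with a pseudocount of 0.1 FPKM and −0.31 without a filter, where more genes near 0 enter.

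Without any 1 library, calls numbered 10212 to 11031 (2737 to 2980 in heart, 7424 to 8128 in kidney), the share higher in heart was 26.3% to 27.4% and the median −0.69 to −0.63. Limited genes then numbered 143 to 183 in heart and 211 to 301 in kidney, where fewer libraries make the definition easier to meet. Listed at 0 in the other tissue were 61 heart-limited and 78 kidney-limited genes. A level of 1 FPKM left 96 kidney-limited and 101 heart-limited genes, and median ratio scaling gave 117 and 173, so that heart had more of them under both, against 192 and 133. With the replicate number as a block, 10787 genes were called, 27.2% of them higher in heart. Deviations from the tissue means correlated at 0.17, −0.12 and 0.12 between same-numbered libraries, and heart 1 correlated best with kidney 2. Deviations within a tissue are tied to one another, so these correlations cannot decide the pairing. The labels do not say that a number marks an animal, so the numbers served as a block only in this alternative.

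The percentage higher in heart at 16-fold or more changed its side of 50% under median ratio (68.0%) and quantile scaling (55.7%), and that at 64-fold or more with equal sums (47.1%). These comparisons by size, and the sum without ENSBTAG00000043561, were added after the data were examined. The 4 named genes kept their direction and call in all 69 fits of an alternative that tested them. They were chosen for the largest differences in these same libraries, so this outcome is no independent support. The planned lists by symbol and their shares of summed FPKM were not run, because no identifier matched a symbol. The absence of counts limits what can be said of genes near 0.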
